A study of Mus musculus with 44 samples.

Results

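The outer layer of the mouse conceptus at embryonic day 6.5 (E6.5), the extraembryonic endoderm (exEndo), was compared between its distal piece, which covers the epiblast, and its proximal piece, which covers the extraembryonic ectoderm. The libraries were chosen by their tissue label alone, and they make up 8 of the 44 RNA-seq libraries of the study, 4 distal (exEndo1, replicates 1 to 4) and 4 proximal (exEndo2, replicates 1 to 4). All 8 came from chimaeric embryos of wild-type (WT) genotype, in which an mCherry+ morula (CD1/G4) had been aggregated with GFP+ mESCs (G4), so that host cells form the extraembryonic endoderm and the aggregated embryonic stem cells mainly form the epiblast. EGFP was driven by the CAG promoter at Rosa26 in the stem cell line, mCherry was driven by the EF1a promoter in a mouse line derived from 1 transgenic clone, and the stage includes a 24 h delay caused by transfer into CD1 females. Each library was made from the tissue of a single embryo, cut at the boundary between the embryonic and extraembryonic parts, loosened with trypsin and pancreatin and drawn through a glass capillary by hand, with no sorting of cells. The labels do not say that equal replicate numbers share an embryo. The study followed distal exEndo as the source of the extraembryonic cells of the gut (exGut) and proximal exEndo as the source of the yolk sac endoderm (YsEndo), and E9.5 libraries of exGut (8 libraries, 4 of midgut and 4 of hindgut) and YsEndo (4 libraries), each of sorted cells from pooled embryos of the same strain and genotype, were used to set the E6.5 values against later ones.

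The visceral endoderm is a polarized epithelium that takes up maternal proteins by endocytosis and secretes lipoproteins and serum proteins before the placenta works. Over the epiblast it also acts as a signalling centre: Nodal from the epiblast induces the anterior visceral endoderm (AVE), whose cells migrate from the distal tip and secrete antagonists of Nodal and WNT that help to position the primitive streak. Over the extraembryonic ectoderm it lies next to a source of BMP4, stays absorptive and contributes to the yolk sac.

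Expression is given as TPM (a level scaled for gene length and for the total of the library), and differences as the distal minus the proximal mean of log2(TPM + 1) with the standard error (SE) from limma, so that a positive value means higher in distal exEndo. A gene was called at a Benjamini-Hochberg adjusted p under 0.05 together with an absolute log2 difference above 1. The pseudocount of 1 shrinks the differences of weakly expressed genes.

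The 8 libraries held 6.57 to 9.06 Gb of aligned bases as implied by the deposited coverage and 12074 to 13172 genes above 1 TPM, and their 10 most abundant genes took 5.45 to 8.22% of the TPM. All 10 visceral endoderm markers listed were above 1 TPM in every library, with summed levels of 11330 to 19460 TPM in distal and 9985 to 15750 TPM in proximal exEndo. mCherry lay between 1764 and 5231 TPM in distal and between 1731 and 4938 TPM in proximal exEndo. Epiblast-derived EGFP stood at 1.09, 13.7, 0.066 and 15.9 TPM in distal replicates 1 to 4 and at 0, 0, 0 and 3.60 TPM in proximal replicates 1 to 4, against a mean of 385 TPM in the 4 epiblast (Epi) libraries. The epiblast RNA that this implies was 0.282, 3.55, 0.0172 and 4.13% of an Epi library in the distal replicates and 0.933% in proximal replicate 4. Markers of extraembryonic ectoderm and ectoplacental cone summed to 22.9 to 32.8 TPM in distal exEndo and to 13.23, 67.03, 27.83 and 50.79 TPM in proximal exEndo, with Tpbpa at 0 in all 8. In tissue samples of this kind fewer cells of a type and less RNA per cell cannot be told apart.

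A minority of genes were called between distal and proximal exEndo, led on the distal side by Cer1, Fgf5 and Otx2 and on the proximal side by the fatty acid binding proteins Fabp3 and Fabp1. Of 11414 protein-coding genes tested, 732 (6.41%) were called, 452 (3.96%) higher in distal and 280 (2.45%) higher in proximal exEndo. Without the fold threshold, 1582 genes had an adjusted limma p under 0.05. The 4 distal and 4 proximal values did not overlap for 2234 genes (19.6%), among them 418 of the 452 and 262 of the 280. The median log2 difference of all tested genes was 0.02. Several libraries shaped the values within a group: distal replicate 3 was the lowest distal library for 271 of the 452 genes and distal replicate 1 the highest for 198, and proximal replicate 2 was the highest proximal library for 130 of the 280.

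The 15 distal-high genes with the largest differences among those with no overlap and a mean of at least 10 TPM were Cer1, Fgf5, Otx2, Sfrp1, Mest, Fgf8, Igfbp2, Mixl1, Gpc4, Nodal, Irs4, Gsc, Lhx1, Akr1c13 and Pilra, with log2 differences from 6.37 down to 4.29. The 15 proximal-high genes were Fabp3, Fabp1, Myl3, Hs3st1, Ggt1, Pitx1, Igfbp1, Fst, Crabp2, Tnnc1, Gpx2, Scube2, Akr1b8, Epas1 and Ece1, with log2 differences from -5.63 to -2.97. Both sets hold transcription factors (Otx2, Mixl1, Gsc and Lhx1 on the distal side, Pitx1 and Epas1 on the proximal side) and secreted proteins (Cer1, Fgf5, Sfrp1, Fgf8, Igfbp2 and Nodal against Igfbp1, Fst and Scube2).

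**Figure D1:**
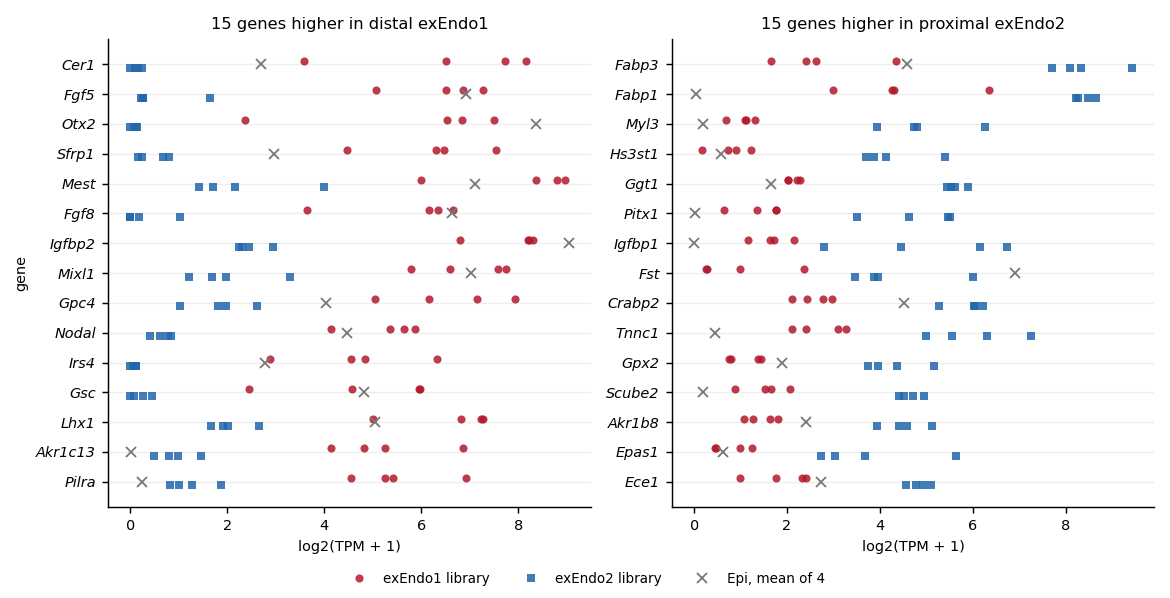
Expression as log2(TPM + 1) on the horizontal axis of the 15 named genes with the largest differences in each direction (rows), with 1 red circle per distal (exEndo1) library, 1 blue square per proximal (exEndo2) library and a grey cross for the mean of the 4 Epi libraries. The groups do not overlap for any of these 30 genes, and Cer1 and Fabp3 show the largest log2 differences in each direction, 6.37 and -5.63.

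Promoters of 4 called genes (Cer1, Fabp1 and Fabp3 of these 30, and Sp5, described further on), taken from RefSeq (GRCm38.p6, the reference build of mm10), are shown because the genes differ strongly and their promoters carry short motifs of factor families linked to these pathways. Each runs from 250 bases before to 50 bases after the annotated start and is written in the direction of transcription, with motif matches in capitals. Cer1 lies at chr4:82885102-82885401 (minus strand) and holds 1 SMAD motif (CAGACA) at -213 from the start. Sp5 lies at chr2:70474673-70474972 (plus strand) and holds 1 TCF motif (CTTTGATC) at -104 and 2 GATA motifs (AGATAA, and its complement TTATCT) at -226 and -29. Fabp1 lies at chr6:71199629-71199928 (plus strand) and holds 1 match to the direct repeat bound by HNF4 and PPAR (DR1, a direct repeat of AGGNCA with 1 base between, here on the other strand) at -67 and 1 TATAAA at -30. Fabp3 lies at chr4:130308488-130308787 (plus strand) and holds 1 KLF motif (GGGTGTGG) at -64.
Cer1: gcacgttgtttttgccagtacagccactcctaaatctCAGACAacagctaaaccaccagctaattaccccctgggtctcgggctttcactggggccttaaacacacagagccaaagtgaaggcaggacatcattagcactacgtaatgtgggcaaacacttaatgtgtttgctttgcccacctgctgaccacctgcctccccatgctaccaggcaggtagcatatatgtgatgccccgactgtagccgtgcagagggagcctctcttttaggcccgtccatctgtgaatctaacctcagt
Sp5: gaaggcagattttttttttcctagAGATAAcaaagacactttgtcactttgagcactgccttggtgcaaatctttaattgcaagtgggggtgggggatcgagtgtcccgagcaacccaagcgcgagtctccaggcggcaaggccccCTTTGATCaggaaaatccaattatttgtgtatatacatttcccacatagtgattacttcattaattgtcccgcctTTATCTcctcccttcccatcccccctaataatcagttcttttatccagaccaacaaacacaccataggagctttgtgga
Fabp1: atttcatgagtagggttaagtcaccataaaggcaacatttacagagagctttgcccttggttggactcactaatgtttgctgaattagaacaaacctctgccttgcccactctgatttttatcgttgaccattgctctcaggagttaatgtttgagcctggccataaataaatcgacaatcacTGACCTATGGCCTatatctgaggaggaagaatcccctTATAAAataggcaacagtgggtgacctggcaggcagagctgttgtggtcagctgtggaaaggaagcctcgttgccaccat
Fabp3: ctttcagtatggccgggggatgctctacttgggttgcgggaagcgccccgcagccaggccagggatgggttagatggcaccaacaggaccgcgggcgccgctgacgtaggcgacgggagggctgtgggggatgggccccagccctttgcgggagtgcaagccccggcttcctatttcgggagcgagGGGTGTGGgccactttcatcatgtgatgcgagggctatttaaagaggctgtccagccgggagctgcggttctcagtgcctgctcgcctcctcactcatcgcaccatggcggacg

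Promoters of 9072 of the 11414 tested genes could be matched, 326 of distal-high and 207 of proximal-high genes. Searched on both strands, CAGACA was found in 21.0% of the 32851 promoters of the table, in 15.1% of those of tested genes, in 15.6% of distal-high and in 17.4% of proximal-high promoters. CTTTGATC was found in 0.938, 0.761, 0.613 and 0.483% of the same sets, AGATAA in 11.2, 6.14, 6.75 and 8.21%, GGGTGTGG in 3.56, 3.59, 4.29 and 3.86%, and TATAAA in 13.6, 6.62, 9.20 and 11.1%. The DR1 repeat was found in 0.381% of all and in 0.276% of tested promoters, in 0 of 326 distal-high and in 3 of 207 proximal-high promoters (1.45%), those of Fabp1, Eps8l3 and Ubash3b. The last 2 are named because they complete the count. Over the 12 motifs searched, the shares among called genes differed from those among tested genes by -1.46 to 4.48 percentage points.

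Secreted antagonists of the AVE were mostly higher in distal exEndo, and a minority of its listed transcription factors were. Of 15 listed AVE genes 14 were tested, 8 were higher in distal and 1, Sox17, was higher in proximal exEndo, and the median log2 difference was 2.20 against 0.02 for all tested genes. Genes above 1 TPM in a single group could pass the filter on low values, so that this and the following list counts describe the tested members. With a filter at 5 TPM, 11 AVE genes were tested, 5 higher in distal and 1 higher in proximal exEndo, with a median of 0.75. At the filter of 1 TPM, 5 of 6 tested members listed as secreted were higher in distal exEndo (median 2.94). Besides secreted antagonists, that group holds the enzyme gene Cyp26a1 and the receptor inhibitor Shisa2. Among the transcription factors 3 of 8 were higher and 1 lower (median 0.54).

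Cer1 (chr4:82881751-82885148), a secreted antagonist of Nodal, BMP and WNT and the gene with the largest difference, was at 283, 89.8, 11.0 and 209 TPM in distal replicates 1 to 4 and at 0, 0.173, 0.064 and 0.122 TPM in proximal replicates 1 to 4. Even the lowest distal library, replicate 3, lay far above every proximal library, and the mean of Epi was only 5.49 TPM. The log2 difference was 6.37 ± 0.76 (SE, n = 4 and 4, adjusted p = 0.00033). Lefty1, another secreted Nodal antagonist, reached 53.5, 48.1 and 18.9 TPM in distal replicates 1, 2 and 4, but was listed at 0 in distal replicate 3 and at 0 to 0.143 TPM in proximal exEndo. With only 3 libraries above 1 TPM it was not tested.

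Otx2, a homeobox factor needed for AVE movement and later for the forebrain, was at 179, 114, 4.18 and 91.9 TPM in distal and at 0.103, 0, 0.081 and 0.058 TPM in proximal exEndo (log2 difference 5.73 ± 0.86, adjusted p = 0.00137). Gsc, a homeobox repressor of the AVE and organizer, was at 60.6, 62.2, 4.46 and 22.9 TPM in distal and at 0, 0.200, 0.054 and 0.362 TPM in proximal exEndo (4.54 ± 0.63, adjusted p = 0.000823). Lhx1, a LIM homeobox factor that acts with Otx2, was at 153, 150, 31.1 and 111 TPM in distal and at 5.33, 2.18, 2.76 and 3.02 TPM in proximal exEndo (4.52 ± 0.44, adjusted p = 8.37e-05). For all 3 factors distal replicate 3 was the lowest distal library, and distal and proximal values stayed apart. Epi expressed Otx2 at a mean of 328 TPM, above distal exEndo, and Gsc and Lhx1 at means of 27.4 and 31.9 TPM, below the distal means of 37.5 and 111 TPM.

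The WNT antagonist Sfrp1 was at 186, 77.5, 21.2 and 87.5 TPM in distal and at 0.738, 0.590, 0.180 and 0.119 TPM in proximal exEndo (5.73 ± 0.50, adjusted p = 4.11e-05). Its relative Sfrp5 was at 37.7, 15.8, 9.02 and 33.7 TPM in distal and at 1.49, 3.96, 2.50 and 1.40 TPM in proximal exEndo, a log2 difference of 2.77. Shisa2, an inhibitor of WNT and FGF receptors, was at 23.4, 8.61, 1.69 and 13.6 TPM in distal and at 0 to 0.540 TPM in proximal exEndo (log2 difference 3.12). The distal values of these antagonists ranked replicate 1 highest and replicate 3 lowest, in the same way as Cer1. Shisa2 was no longer called without distal replicates 2 and 4 (adjusted p = 0.0555).

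Other genes of the AVE list were not called, among them Hhex, Dkk1 and Hesx1. Hhex, a homeobox factor, was at 43.7, 16.7, 6.88 and 28.9 TPM in distal and at 26.6, 13.3, 11.7 and 13.6 TPM in proximal exEndo (0.34), and the WNT antagonist Dkk1 had a log2 difference of 0.26. Hesx1, a homeobox repressor, was at 86.6, 2.03, 3.07 and 20.1 TPM in distal and at 25.8, 36.1, 14.1 and 13.8 TPM in proximal exEndo (-0.82). Distal and proximal values of Hhex and Hesx1 overlapped, with distal replicate 1 the highest of all libraries in both.

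**Figure D2:**
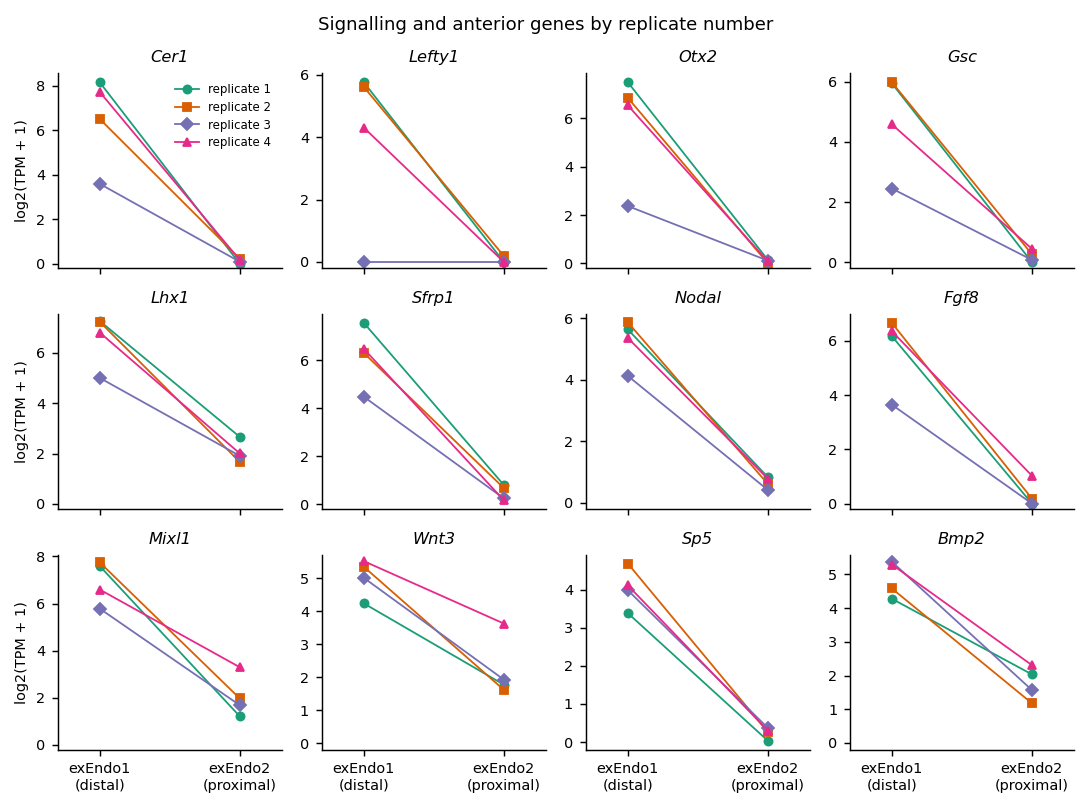
Expression as log2(TPM + 1) of 12 signalling and anterior genes in distal (exEndo1) and proximal (exEndo2) exEndo, with 1 point per library and a line and colour for each replicate number. Distal replicate 3 is the lowest distal library for Cer1 (11.0 TPM) and Otx2 (4.18 TPM) and still lies above all 4 proximal libraries.

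In the Nodal pathway the ligand, a co-receptor, a transcriptional partner, the antagonist Cer1 and 3 of 4 targets were higher in distal exEndo. Of 25 listed genes 16 were tested, 7 were higher in distal exEndo, and the median log2 difference was 0.50. The limma test called 0 of the 16 higher in proximal exEndo, where 1 had an unadjusted p under 0.05. Nodal, a TGF-beta family ligand, was at 48.8, 57.5, 16.5 and 40.1 TPM in distal and at 0.782, 0.525, 0.334 and 0.718 TPM in proximal exEndo (4.59 ± 0.33, adjusted p = 1.21e-05). Every distal library exceeded every proximal library, and the Epi mean was 21.3 TPM, below 3 of the 4 distal libraries. Cfc1, an EGF-CFC co-receptor for Nodal, was at 82.4, 86.7, 83.7 and 93.2 TPM in distal and at 56.9, 26.5, 38.3 and 30.7 TPM in proximal exEndo (1.22). Foxh1, the forkhead partner of SMAD2 and SMAD3, was at 63.6, 54.8, 39.1 and 59.8 TPM in distal and at 14.8, 10.2, 21.9 and 26.6 TPM in proximal exEndo (1.57). Among 4 tested receptors and co-receptors only Cfc1 was called, and among 5 signal transducers only Foxh1.

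The distal-high targets of Nodal were Lhx1, Eomes and Mixl1. Eomes, a T-box factor, was at 84.8, 69.9, 35.4 and 55.2 TPM in distal and at 9.81, 8.44, 6.05 and 15.9 TPM in proximal exEndo (2.50 ± 0.30, adjusted p = 0.000305). Mixl1, a homeobox factor of the primitive streak, was at 192, 214, 54.1 and 95.7 TPM in distal and at 1.32, 2.93, 2.22 and 8.84 TPM in proximal exEndo (4.89 ± 0.48, adjusted p = 9.39e-05). Both groups stayed apart for each gene, with proximal replicate 4 the highest proximal library. Epi expressed Eomes and Mixl1 at means of 73.9 and 128 TPM.

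Many distal-high genes were also expressed in the epiblast, the tissue from which distal exEndo was peeled. The 10 epiblast markers listed summed to 424 to 607 TPM in distal exEndo, 227 to 301 TPM in proximal exEndo and 3540 to 4970 TPM in Epi. Proximal replicates 1 to 3, with EGFP at 0, still summed to 241, 227 and 291 TPM, so the sums do not measure epiblast RNA alone. Of them 7 were tested and 2, Fgf5 and Pou5f1, were higher in distal exEndo, with Nanog as another when the replicate number was a block (1.19, adjusted p = 0.0207). Pou5f1, the pluripotency factor, was at 9.29, 21.7, 2.29 and 17.4 TPM in distal exEndo, 0.142 to 1.35% of its Epi mean. Its call was lost without distal replicate 2 or 4 or without proximal replicate 1 or 3. Sox2 and Pou3f1 were below 1 TPM in all 4 distal libraries, and Tdgf1, the epiblast co-receptor of Nodal, was at 0.695, 47.2, 0.698 and 37.5 TPM there, high in the libraries with EGFP. Of the 10 streak and mesoderm markers, which summed to 80.8 to 333 TPM in distal and 6.39 to 25.7 TPM in proximal exEndo, Fgf8, Mixl1 and Evx1 were higher in distal exEndo, whereas Cdx1, Hand1, Kdr, Mesp1 and Tbx6 stayed below 1 TPM in distal exEndo.

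Of the 452 distal-high genes, 133 (29.4%) had a mean in Epi above that in distal exEndo and 144 (31.9%) had a mean in Epi below that in proximal exEndo. The same shares were not taken over all tested genes, so they cannot be called particular to this set. After the share of epiblast RNA estimated from EGFP was subtracted from each library, 730 genes were called, 710 of them among the 732. A larger share, taken as the median over the epiblast markers (1.92 to 6.70% in distal exEndo), left 740 calls, 700 of them shared. When distal replicates 2 and 4, which had EGFP above 10 TPM, were left out, 459 genes were called, 279 higher in distal and 180 higher in proximal exEndo. The AVE list then had 6 genes higher in distal exEndo and the Nodal list 7. This fit held only distal replicates 1 and 3 against the 4 proximal libraries. Replicates 2 and 4 also had 5 sex-linked markers above 1 TPM in both pieces, against 1 in replicates 1 and 3. The parts of fewer libraries, sex and epiblast RNA in the fall in calls were not tested. How much of the distal level of genes shared with the epiblast comes from adhering cells was not tested beyond these subtractions.

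FGF ligands and feedback inhibitors of their pathway were higher in distal exEndo, and none of the 4 tested receptors was called. Of 18 listed genes 15 were tested, 7 were higher in distal exEndo and the median log2 difference was 0.66. Fgf5 was at 155, 115, 32.4 and 90.1 TPM in distal and at 2.12, 0.199, 0.160 and 0.193 TPM in proximal exEndo (5.84 ± 0.45, adjusted p = 2.05e-05), with an Epi mean of 121 TPM. Fgf8 was at 71.0, 99.8, 11.5 and 80.6 TPM in distal and at 0, 0.135, 0 and 1.04 TPM in proximal exEndo (5.40 ± 0.56, adjusted p = 0.000119), with an Epi mean of 97.8 TPM. Distal replicate 3 again had the lowest distal values, and neither ligand overlapped between the groups. Fgf10 was at 39.6, 27.5, 18.2 and 19.6 TPM in distal and at 2.91, 2.66, 1.21 and 1.72 TPM in proximal exEndo (3.09 ± 0.27).

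The feedback inhibitors Spry1, Spry2, Spry4 and Spred1, which are induced by FGF signalling and restrain it, had log2 differences of 1.74, 1.33, 1.61 and 1.24. Spry1 was at 16.7, 35.2, 27.3 and 22.0 TPM in distal and at 5.599, 6.395, 8.607 and 6.181 TPM in proximal exEndo, and for this inhibitor distal replicate 1 rather than replicate 3 was the lowest distal library. Other FGF targets were not called: Dusp6, Etv4 and Etv5 had log2 differences of 0.66, 0.65 and 0.06. The receptors had a median of -0.50, and 2 of them had an unadjusted p under 0.05, in favour of proximal exEndo.

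WNT genes differed in both directions, with 3 inhibitors (Sfrp1, Sfrp5 and Shisa2, given above), 2 ligands, 2 frizzled receptors and 1 target higher in distal exEndo and another frizzled receptor and an inhibitor higher in proximal exEndo. Of 40 listed genes 24 were tested, 8 were higher in distal and 2 higher in proximal exEndo, and the median log2 difference was 0.37. With a filter at 5 TPM, 15 were tested, 4 higher in distal and 1 higher in proximal exEndo, with a median of -0.006. Wnt3, the ligand needed for streak formation, was at 17.8, 39.6, 31.2 and 44.7 TPM in distal and at 2.41, 2.06, 2.79 and 11.3 TPM in proximal exEndo (2.79 ± 0.42, adjusted p = 0.00137). Proximal replicate 4 was set apart from the other proximal libraries but stayed below the lowest distal library, replicate 1, and the Epi mean was 13.2 TPM. Sp5, a transcription factor induced by WNT, whose promoter is shown above, was at 9.42, 24.6, 14.8 and 16.2 TPM in distal and at 0.023, 0.196, 0.292 and 0.230 TPM in proximal exEndo (3.80 ± 0.26, adjusted p = 9.25e-06). Axin2, another target, was not called, with 2.16 to 8.08 TPM in distal and 5.10 to 7.04 TPM in proximal exEndo (-0.01).

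Wnt5a, a ligand of non-canonical signalling, and the receptors Fzd2 and Fzd5 had log2 differences of 1.34, 1.51 and 2.04. Proximal exEndo had more Fzd4 (-1.26) and more of the inhibitor Nkd1 (-1.15), though both calls depended on single libraries: Fzd4 was lost without proximal replicate 3 or 4, and Nkd1 without distal replicate 1, 2 or 4 or proximal replicate 2, 3 or 4 (largest adjusted p over the alternatives 0.122 and 0.146). The 3 distal-high genes Wnt5a, Fzd2 and Fzd5 were not called without distal replicates 2 and 4, with adjusted p values of 0.0945, 0.101 and 0.125.

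BMP genes also split. Of 30 listed genes 22 were tested, 4 were higher in distal and 4 higher in proximal exEndo, with a median of -0.27. Bmp2 was at 18.4, 23.0, 40.6 and 38.3 TPM in distal and at 3.10, 1.26, 1.97 and 3.95 TPM in proximal exEndo (3.11 ± 0.30, adjusted p = 8.37e-05), with replicates 3 and 4 the higher distal libraries. Bmp6, a related ligand, was at 0.990, 3.02, 8.63 and 6.28 TPM in distal and at 11.5, 14.4, 15.0 and 13.4 TPM in proximal exEndo (-1.57 ± 0.40, adjusted p = 0.023). The Bmp6 call was lost without distal replicate 2 or proximal replicate 2, 3 or 4, with a largest adjusted p of 0.0900 over all alternatives. The 2 ligands ran in opposite directions, and Bmp4 was not called (-0.30).

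The inhibitors Bambi, Chrd and Twsg1 were higher in distal exEndo (1.21, 1.34 and 1.05), Twsg1 not without distal replicate 1 or 4. Fst, the activin-binding protein follistatin, was higher in proximal exEndo, at 0.204, 4.16, 0.190 and 0.995 TPM in distal and at 14.6, 63.3, 13.7 and 9.96 TPM in proximal exEndo (-3.35 ± 0.57, adjusted p = 0.00293). The Epi mean of Fst was 120 TPM, so that among the 3 tissues distal exEndo had the lowest level. Id2, an inhibitory helix-loop-helix factor induced by BMP, was at 192, 209, 324 and 228 TPM in distal and at 809, 541, 477 and 548 TPM in proximal exEndo (-1.32 ± 0.19, adjusted p = 0.000992). Id1 and Id3 had differences of -0.52 and -0.65 and were not called. Smad9, a signal transducer, was called at -1.04 but not without distal replicate 1 or proximal replicate 4.

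Retinoid and hedgehog genes differed strongly in both directions. Of 23 listed genes 12 were tested, 2 were higher in distal and 4 higher in proximal exEndo, with a median of -0.14. Cyp26a1, which breaks down retinoic acid, was at 1384, 1080, 456 and 809 TPM in distal and at 200, 375, 265 and 300 TPM in proximal exEndo (1.63 ± 0.30, adjusted p = 0.00426). Distal replicate 3 was the lowest distal library but lay above all proximal ones, and the call was lost without distal replicates 2 and 4 (adjusted p = 0.0607) and when the Epi libraries shared the fit (adjusted p = 0.272).

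Crabp2, a cellular retinoic acid binding protein, was at 3.32, 5.85, 6.88 and 4.37 TPM in distal and at 65.6, 37.6, 73.1 and 63.9 TPM in proximal exEndo (-3.32 ± 0.24, adjusted p = 1.41e-05). Its relative Crabp1 was also higher in proximal exEndo (-2.17), as was the retinal reductase Dhrs3 (-1.47), whose call was lost without distal replicate 4 or proximal replicate 2 or 3. Every proximal value of Crabp2 lay above every distal one. Ihh, the hedgehog ligand of the visceral endoderm, was at 3.77, 6.87, 10.6 and 6.22 TPM in distal and at 15.9, 18.5, 22.0 and 19.2 TPM in proximal exEndo (-1.40 ± 0.24, adjusted p = 0.00312).

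Among the endoderm factors Gata4, Gata6 and Hnf4a were not called, and 10 others, with Sox17 among them, divided between the pieces. Of 32 listed endoderm transcription factors 22 were tested, 4 were higher in distal and 6 higher in proximal exEndo, with a median of -0.27. The log2 differences of Gata4, Gata6 and Hnf4a were -0.35, -0.20 and -0.07. Foxa1, a forkhead pioneer factor, was at 18.4, 13.9, 7.57 and 9.93 TPM in distal and at 0.059, 0, 0.490 and 0.200 TPM in proximal exEndo (3.45 ± 0.27, adjusted p = 2.05e-05). Its relative Foxa2 was at 34.4 to 52.3 TPM in distal and 23.2 to 28.5 TPM in proximal exEndo, a difference of 0.75 (adjusted p = 0.00954) that stayed under the fold threshold. Prdm1, a zinc finger repressor, was at 17.3, 18.7, 15.7 and 14.7 TPM in distal and at 0.853, 1.21, 1.26 and 0.804 TPM in proximal exEndo (3.12 ± 0.17, adjusted p = 3.48e-06), with little spread in either group.

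Sox7, an HMG box factor of primitive and parietal endoderm, was at 6.93, 3.64, 6.90 and 5.59 TPM in distal and at 24.3, 21.9, 20.9 and 20.1 TPM in proximal exEndo (-1.78 ± 0.19, adjusted p = 0.000157). Sox17 was at 36.0, 90.6, 80.0 and 101 TPM in distal and at 151, 148, 159 and 137 TPM in proximal exEndo (-1.04 ± 0.26, adjusted p = 0.0215), and its call was lost without distal replicate 1 or proximal replicate 3. Klf5 was at 16.7, 11.1, 20.4 and 19.2 TPM in distal and at 71.5, 75.2, 39.5 and 47.8 TPM in proximal exEndo (-1.72). Klf4, the epithelial factor Elf3 and the lipid regulator Creb3l3 had differences of -1.52, -1.46 and -1.23, Creb3l3 not called without distal replicate 1. Proximal libraries lay above all distal libraries for Sox7, Sox17 and Klf5.

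Of the secreted serum proteins, those called were higher in distal exEndo. Of 26 listed genes 15 were tested, 5 were higher in distal exEndo, with a median of 0.63, and limma called 0 higher in proximal exEndo, where 2 had an unadjusted p under 0.05. Coagulation factor X (F10) was called higher in proximal exEndo with a pseudocount of 0.1, after median-ratio rescaling and without distal replicate 2 or 3 or proximal replicate 1, 2 or 4 (values down to -1.13), and Pros1 joined it without distal replicate 3 (-1.05). Afp, the fetal albumin-like carrier and a marker used for visceral endoderm, was at 1397, 2569, 2184 and 1868 TPM in distal and at 146, 30.2, 192 and 177 TPM in proximal exEndo (4.13 ± 0.48, adjusted p = 0.000282). Spink1, a secreted trypsin inhibitor, was at 14782, 12187, 13969 and 11233 TPM in distal and at 4559, 2185, 6051 and 5390 TPM in proximal exEndo (1.61 ± 0.26, adjusted p = 0.00215). Proximal replicate 2 was the lowest library for Afp and Spink1, and no values overlapped. The iron carrier transferrin (Trf), coagulation factor V (F5) and the protease inhibitor precursor Ambp had differences of 1.63, 3.89 and 1.77. Ttr (0.63, adjusted p = 0.0705) and Rbp4 (1.10, adjusted p = 0.0732), carriers of thyroid hormone and retinol, were not called, but Rbp4 was with the replicate block (adjusted p = 0.0339).

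Lipid genes were led by proximal-high fatty acid binding proteins. Of 30 listed genes 26 were tested, 1 was higher in distal and 4 higher in proximal exEndo, with a median of 0.13. Without distal replicate 3 the counts were 3 and 5, with Plin2 and Vldlr added on the distal side (1.03 and 1.49) and Fabp2 on the proximal side (-1.11), and without distal replicate 1 or proximal replicate 4 only 2 were called higher in proximal exEndo. With the replicate block Vldlr was also called (1.09, adjusted p = 0.0431). Fabp3, whose promoter is shown above, was at 19.3, 4.31, 2.16 and 5.20 TPM in distal and at 270, 693, 207 and 320 TPM in proximal exEndo (-5.63 ± 0.51, adjusted p = 5.07e-05). Fabp1, the liver-type protein, was at 6.98, 18.1, 80.6 and 18.6 TPM in distal and at 400, 306, 358 and 299 TPM in proximal exEndo (-3.93 ± 0.52, adjusted p = 0.000623). The distal libraries differed in which of the 2 was higher: replicate 1 was the highest for Fabp3 and the lowest for Fabp1, and replicate 3 was the reverse. Apob, the structural protein of low-density lipoproteins, was at 607, 992, 892 and 715 TPM in distal and at 375, 196, 401 and 284 TPM in proximal exEndo (1.38 ± 0.22, adjusted p = 0.00202). Apoa2 (-1.17) and Dgat2 (-1.05), a triglyceride synthase, were called, but Apoa2 not without distal replicate 1 or 4 or proximal replicate 3 or 4, and Dgat2 not without distal replicate 1 or proximal replicate 4. Apoa1 (0.86) and Apoe (-0.03) were not called.

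Endocytic and lysosomal genes were called at shares near the 6.41% of all tested genes, with the receptor Lrp2 and the protease Ctsc among those called. Of 23 listed endocytic receptors and apical genes 16 were tested and 1 was higher in proximal exEndo, with a median of -0.28, and without proximal replicate 3 there were 2 (Fcgrt added). That gene, Lrp2, which encodes the multiligand receptor megalin, was at 39.7, 49.1, 81.5 and 66.9 TPM in distal and at 219, 160, 143 and 128 TPM in proximal exEndo (-1.46 ± 0.22, adjusted p = 0.00151). Its partners Cubn, Amn and Dab2 had differences of -0.36, -0.35 and 0.18 and were not called. Of 30 lysosomal genes 29 were tested, with a median of -0.21. At an unadjusted limma p under 0.05, 2 lysosomal genes were higher in distal and 12 higher in proximal exEndo. The endocytic list had 1 and 4 at that limit, and all 11414 tested genes had 1856 and 1415. The protease Ctsc was higher in distal exEndo, at 839, 666, 603 and 557 TPM against 291, 178, 265 and 230 TPM in proximal exEndo (1.47), and Glb1 was called higher in proximal exEndo (-1.01), a call lost when any of distal replicates 1 and 2 and proximal replicates 2, 3 and 4 was left out. Of 24 tested transporters of 28, the iron exporter Slc40a1 was at 75.1, 88.3, 80.7 and 81.9 TPM in distal and at 37.8, 31.2, 29.0 and 31.2 TPM in proximal exEndo (1.31). The peptide transporter Slc15a1 was also higher in distal exEndo (1.74), and the folate transporter Slc46a1 was higher in proximal exEndo (-1.19). The amino acid transporter Slc38a1 was called as well under median-ratio rescaling (-1.02) and quantile normalization (-1.03).

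Basement membrane genes were called in both directions, and laminins and collagens were found on each side. Of 20 listed genes 16 were tested, 2 were higher in distal and 5 higher in proximal exEndo, with a median of -0.65. Without proximal replicate 2 the counts were 3 and 3, with Nid1 added on the distal side (1.17), and without distal replicate 1 they were 2 and 3. Lama1, a laminin chain of Reichert's membrane and of the early basement membranes, was at 6.21, 10.6, 9.13 and 12.7 TPM in distal and at 49.6, 132, 34.4 and 27.8 TPM in proximal exEndo (-2.31 ± 0.40, adjusted p = 0.00328). Sparc, a collagen-binding matrix protein, was at 271, 255, 309 and 352 TPM in distal and at 726, 1169, 944 and 1057 TPM in proximal exEndo (-1.70 ± 0.15, adjusted p = 5.07e-05). Serpinh1, a collagen chaperone, Col4a2 and the collagen hydroxylase P4ha2 had differences of -1.25, -1.05 and -1.14, whereas Lama5 and Col18a1 were higher in distal exEndo (1.05 and 1.90). Col4a2 and P4ha2 were not called without distal replicate 1 or proximal replicate 2, and Lama5 not without distal replicate 2 or proximal replicate 4. Col4a1 (-0.69) and Lamb1 (-0.96) were not called.

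These matrix genes are also made by parietal endoderm, which could adhere to the proximal piece besides extraembryonic ectoderm. Its 10 markers summed to 436 to 816 TPM in distal and 1176 to 1746 TPM in proximal exEndo. Of 8 tested, Sparc, Fst and Pth1r were higher in proximal exEndo, Thbd was at or below 0.265 TPM in every library, and Stra6 stayed at or below 0.600 TPM in proximal exEndo. At an unadjusted limma p under 0.05, 1 marker was higher in distal and 4 were higher in proximal exEndo. Without distal replicate 1, Vim was called higher in distal exEndo (1.11, adjusted p = 0.0316). Proximal replicate 2, the highest library for Lama1 and Fst, also held the highest Plat, at 7.959 TPM against 1.301 to 2.497 TPM in the other proximal libraries. Without proximal replicate 2, the calls of Lama1, Sparc and Fst were kept. The other proximal libraries also had higher marker sums than every distal library, so leaving out replicate 2 does not bear on adhering cells in them. The part of parietal endoderm in the proximal values was not tested. Sparc itself, with a proximal mean of 974 TPM, took a large part of the proximal sums.

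The guidance genes that were called were higher in distal exEndo, and adhesion and junction genes were called in both directions. Cdh2, N-cadherin, was at 50.5, 54.7, 11.5 and 32.6 TPM in distal and at 0.573, 1.62, 0.146 and 1.19 TPM in proximal exEndo (4.21 ± 0.44, adjusted p = 0.000122), and was the distal-high gene among 18 tested of 23 adhesion and junction genes. Itga3 and the tight junction gene Ocln were higher in proximal exEndo (-1.47 and -1.08), Ocln not without distal replicate 2, and Epcam was not called (0.72). Of 23 planar polarity and migration genes 19 were tested and 5 were higher in distal exEndo, with a median of 0.48. These were the guidance receptors and ligands Nrp1, Sema6d, Robo1, Epha4 and Plxna2, with differences of 2.20, 2.42, 1.51, 1.48 and 1.35. Robo1 was lost without distal or proximal replicate 4.

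Growth factor and metabolic genes outside these lists were among the largest differences. Igfbp2, an insulin-like growth factor binding protein, was at 316, 297, 110 and 293 TPM in distal and at 3.93, 3.76, 6.73 and 4.43 TPM in proximal exEndo (5.39 ± 0.31, adjusted p = 3.48e-06), with an Epi mean of 525 TPM. Its relative Igfbp1 was higher in proximal exEndo, at 2.09, 2.27, 3.46 and 1.24 TPM in distal and at 5.91, 106, 20.8 and 70.1 TPM in proximal exEndo (-3.37 ± 0.68, adjusted p = 0.00751). The proximal values of Igfbp1 were highest in the libraries with more extraembryonic ectoderm markers, replicates 2 and 4. The part of extraembryonic ectoderm in these values was not tested. At E9.5 Igfbp1 had a mean of 29.4 TPM in sorted YsEndo and 4.55 TPM in exGut. The E6.5 call was lost when distal replicates 2 and 4 were left out (adjusted p = 0.0859).

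Mest, a paternally expressed imprinted hydrolase, was at 443, 499, 62.4 and 330 TPM in distal and at 2.25, 3.45, 1.68 and 14.8 TPM in proximal exEndo (5.71 ± 0.67, adjusted p = 0.000286). Akr1c13, an aldo-keto reductase, was at 116, 27.4, 16.7 and 37.3 TPM in distal and at 1.73, 0.407, 0.740 and 0.979 TPM in proximal exEndo (4.34 ± 0.47, adjusted p = 0.000163), with an Epi mean of 0.00832 TPM. Distal replicate 1 was the highest for Akr1c13 but not for Mest, and distal replicate 3 was the lowest for both. Ggt1, which breaks down extracellular glutathione, was at 3.07, 3.82, 3.08 and 3.62 TPM in distal and at 48.3, 58.3, 45.4 and 42.4 TPM in proximal exEndo (-3.49 ± 0.15, adjusted p = 9.35e-07), with the smallest SE of the 30 genes named by size. The troponin Tnnc1 was at 3.31, 8.61, 7.62 and 4.32 TPM in distal and at 30.9, 151, 78.7 and 45.9 TPM in proximal exEndo (-3.31), and the homeobox factor Pitx1 at 0.551, 1.54, 2.40 and 2.41 TPM in distal and at 10.4, 43.1, 23.7 and 44.6 TPM in proximal exEndo (-3.40).

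Calls among genes of general metabolism and proliferation were few, and with lists this small the counts cannot be set apart from the 6.41% called over all tested genes. The limma test called 0 of 22 cell cycle genes, 0 of 9 tested heme, iron and globin genes and 0 of 10 tested immediate early genes, with medians of 0.05, -0.14 and 0.50. At an unadjusted p under 0.05 the cell cycle list had 4 genes higher in distal and 5 higher in proximal exEndo, the heme list had 2 higher in proximal exEndo, and the immediate early list had 0 in either direction. The glycolysis list (18 tested, median -0.40) had 2 higher in distal and 9 higher in proximal exEndo at that limit. All 11414 tested genes had 1856 and 1415. With the replicate block 1 cell cycle gene, Ccnd1, was called (1.41, adjusted p = 0.044), and leaving out single libraries added Ccnd1, Cdkn1c or Cdkn2a. Of the heme list Hmox1 was called after median-ratio rescaling, with FPKM and without distal replicate 3, proximal replicate 3 or 4, or both libraries of replicate 3 (values down to -1.17). The same test found 1 call in 24 cholesterol synthesis genes (Insig1, -1.25), 1 higher in each piece among 18 tested of 19 glycolysis genes (Ldhb 1.25, Pfkm -1.09) and 1 among 5 tested of 8 gluconeogenesis and glycogen genes (Pck1, -1.01). Of 12 tested of 16 germline-associated genes that are active in extraembryonic lineages, Rhox6 was at 23.4, 6.26, 17.2 and 10.8 TPM in distal and at 64.2, 83.1, 52.5 and 66.6 TPM in proximal exEndo (-2.26), whereas Rhox5, at 1403 to 1849 TPM, differed by -0.13 and was not called. Ldhb lost its call once epiblast RNA was subtracted, Pfkm without distal replicate 1 or proximal replicate 2, and Pck1 without distal replicate 1, 2 or 4 or proximal replicate 1 or 2.

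**Figure D3:**
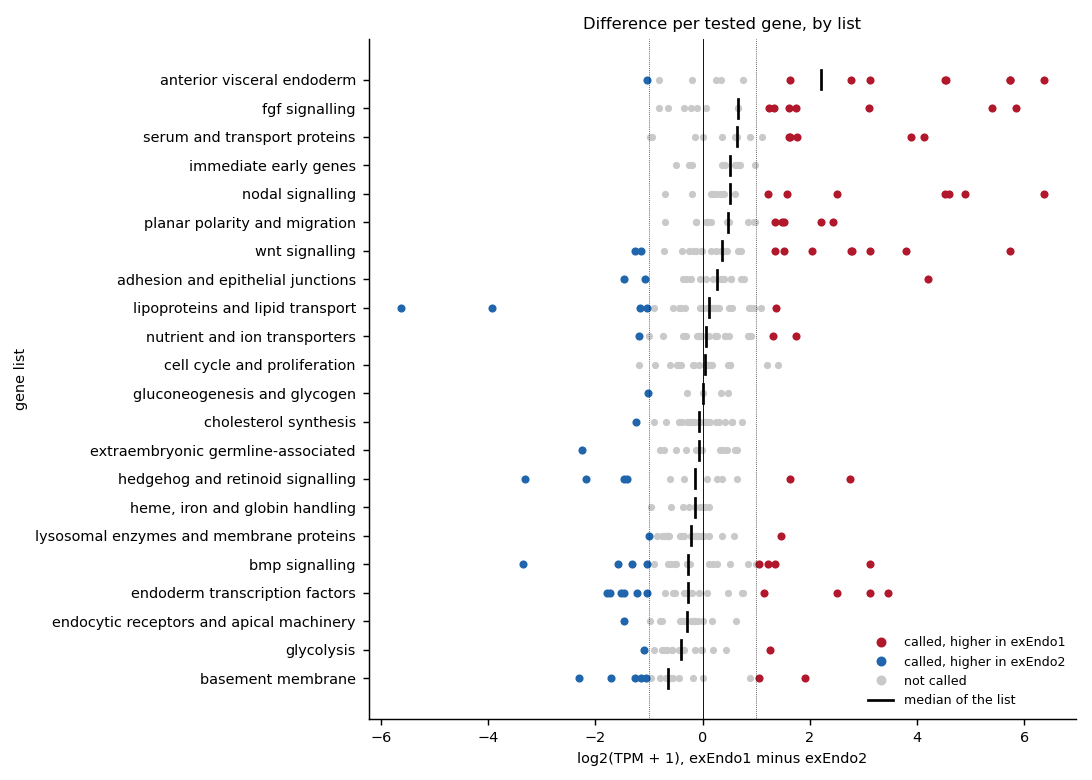
Log2 difference (distal minus proximal, log2(TPM + 1)) of the tested genes of each list other than the cell type markers, with 1 point per gene, called genes in red (higher in distal) or blue (higher in proximal), uncalled genes in grey and the list median as a bar. Of these lists the AVE list has the highest median, 2.20, and the basement membrane list the lowest, -0.65, against 0.02 for all tested genes. The AVE median is 0.75 with a filter at 5 TPM.

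The E6.5 difference was then set beside the difference between exGut and YsEndo at E9.5. Midgut and hindgut libraries entered the E9.5 fit as a single exGut group with no term for region. Its SE and adjusted p values therefore include the difference between the regions. The labels do not say whether midgut and hindgut libraries share embryos. The share of distal-high genes called higher in exGut and the share of proximal-high genes called higher in YsEndo lay above the shares over all tested genes. At E9.5, 5423 of 12801 tested genes (42.4%) were called, 4138 (32.3%) higher in exGut and 1285 (10.0%) higher in YsEndo, and the groups of 5570 genes (43.5%) did not overlap. The median of all genes was shifted by 0.59 towards exGut, and the split of calls, 76.3% higher in exGut, became 54.3% under median-ratio rescaling and 49.7% under quantile normalization.

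Of the 452 distal-high genes 408 were tested at both stages, 240 (58.8%) were called higher in exGut and 43 (10.5%) higher in YsEndo. Of the 280 proximal-high genes 255 were tested at both, 55 (21.6%) were called higher in exGut and 97 (38.0%) higher in YsEndo. The shares over all 11059 genes tested at both stages were 28.8% and 10.3%. Under quantile normalization the shares were 47.1% and 17.9% for distal-high, 9.02% and 50.2% for proximal-high and 14.0% and 17.4% for all genes. The sign was the same at both stages for 473 of the 663 called genes tested at both (71.3%), against 60.0% of all genes tested at both.

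**Figure D4:**
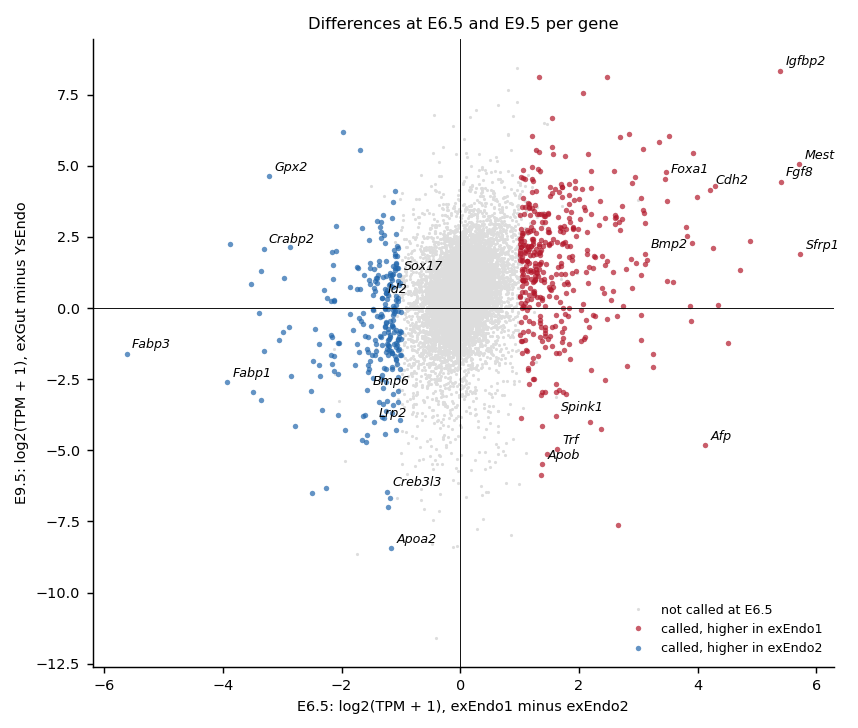
Log2 difference at E9.5 (exGut minus YsEndo) against that at E6.5 (distal minus proximal exEndo), both on the log2(TPM + 1) scale, with 1 point per gene tested at both stages, E6.5 calls in red (higher in distal) or blue (higher in proximal) and the other genes in grey. Of the 663 coloured genes, 473 have the same sign on both axes.

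Named genes showed all 4 combinations. Of the 105 called genes of the lists and of the ranking by size, 23 were higher in distal exEndo and exGut, 12 in proximal exEndo and YsEndo, 8 in distal exEndo and YsEndo and 10 in proximal exEndo and exGut, 37 were not called at E9.5 and 15 were not tested there. In the same order the first 4 counts were 20, 17, 9 and 4 under median-ratio rescaling and 18, 17, 10 and 3 under quantile normalization. Of the 10 higher in proximal exEndo and exGut, Crabp2, Gpx2 and Myl3 kept their E9.5 call under both, Nkd1 kept it under the former alone, and Ece1, Fst, Insig1, Klf4, Klf5 and Slc46a1 kept it under neither. Foxa1, Cdh2, Igfbp2 and Mest were higher in exGut than in YsEndo by 4.54, 4.16, 8.34 and 5.04 on the log2 scale, and Sfrp1, Bmp2 and Sp5 by 1.89, 1.91 and 2.85, of which Sfrp1 (1.01) and Bmp2 (0.845) were not called under quantile normalization. The parts of exGut were not alike. Sp5 was at 12.5 to 42.0 TPM in exHindgut and 0 to 3.92 TPM in exMidgut, and Cdh2 at 46.3 to 67.3 and 1.27 to 17.3 TPM. Foxa1 ran the other way, at 21.0 to 38.7 TPM in exHindgut and 103 to 122 TPM in exMidgut. Lrp2, Apoa2, Creb3l3, Fabp1 and Fabp3 were higher in YsEndo, with differences of -4.01, -8.43, -6.45, -2.61 and -1.60. Cer1, Otx2, Gsc, Nodal, Eomes, Fgf5 and Sox7 were not tested at E9.5, since too few libraries passed 1 TPM.

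Several secreted and absorptive genes that were higher in distal exEndo were higher in YsEndo than in exGut at E9.5. Afp, at a mean of 2004 ± 496 TPM (SD, n = 4) in distal and 136 ± 73.3 TPM in proximal exEndo, was at 4641, 7408, 8162 and 6142 TPM in exMidgut, at 22.1, 109, 437 and 176 TPM in exHindgut and at 23871 to 27040 TPM in YsEndo (-4.83, adjusted p = 0.00877). All YsEndo libraries lay above all exGut libraries, and within exGut the midgut lay above the hindgut. Under quantile normalization Afp was not called at E9.5 (-3.55). Apob, Trf, Ctsc, Spink1 and Slc40a1 had E9.5 differences of -5.48, -4.96, -5.15, -3.80 and -1.69. Apob, Trf and Spink1 were also lower in exHindgut (3.05 to 6.04, 10.9 to 24.4 and 11.5 to 101 TPM) than in exMidgut (68.3 to 181, 165 to 319 and 880 to 1746 TPM). The 2 parts overlapped for Ctsc. In the other direction, Crabp2 and Gpx2, a gastrointestinal glutathione peroxidase, were higher in proximal exEndo and then in exGut, with E9.5 differences of 2.08 and 4.62.

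**Figure D5:**
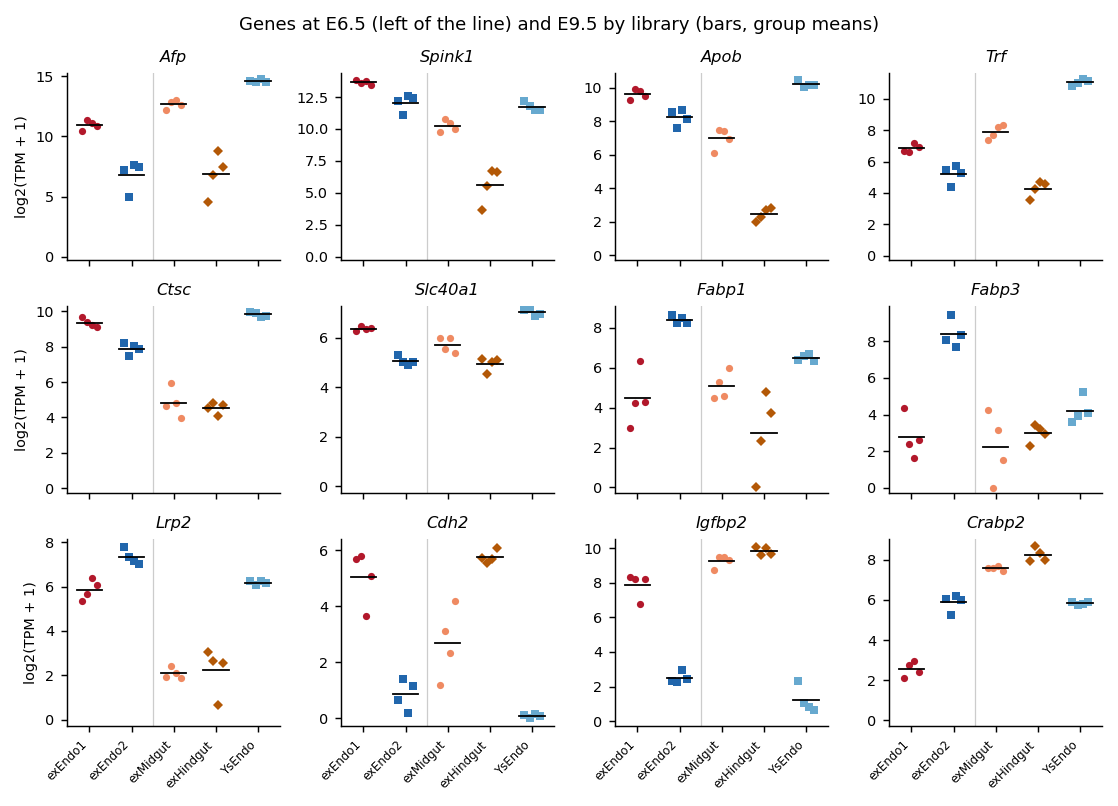
Expression as log2(TPM + 1) of 12 genes in distal (exEndo1) and proximal (exEndo2) exEndo at E6.5, left of the line, and in exMidgut, exHindgut and YsEndo at E9.5, with 1 point per library and a bar for the mean of the log2 values of each group. Afp is higher in distal exEndo at E6.5 (mean 2004 against 136 TPM) and highest in YsEndo at E9.5, at 23871 to 27040 TPM.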

How the data were processed

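Poly(A) RNA of the tissue pieces was sequenced by a low-input adaptation of Smart-RRBS. According to the submitters' processing notes, adapters were removed by the authors with cutadapt 4.1, alignment to mm10 extended by EGFP and mCherry used STAR 2.7.9a, and StringTie 2.0.6 gave the values per gene. The authors deposited TPM, FPKM and coverage per gene for each library, with no read counts. Here TPM was summed per gene identifier (32287 identifiers, of which 32235 matched the GENCODE vM21 annotation), and 21702 protein-coding genes and both reporters were kept, without Y-linked genes. The deposited coverage served only to estimate the aligned bases; a count of reads per gene is not known, so the precision of each value rests on the spread between libraries.

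Genes above 1 TPM in at least 4 of the 8 libraries were tested as log2(TPM + 1) with limma 3.58.1 (eBayes with trend, two-sided, R 4.3.3) with Benjamini-Hochberg adjustment over all genes tested. E9.5 libraries were handled likewise. The deposited FPKM values, a pseudocount of 0.1, filters at 0 and 5 TPM, 2 rescalings, no trend, all gene types, all 12 E6.5 libraries, subtraction of epiblast RNA by EGFP, a replicate block (statmod 1.5.0) and leaving out each library were alternatives. Leaving out distal replicates 2 and 4, subtracting epiblast RNA by markers and leaving out both replicates 3 were added after seeing the data. Libraries with equal replicate numbers deviated together (correlations of deviations from the group means of 0.271, 0.167, 0.402 and 0.272 for numbers 1 to 4, at most 0.111 for other pairs). The labels do not state a pairing, so the main fit was unpaired. Its counts, SE and adjusted p values leave the pairing out, and the replicate number entered only as the block among the alternatives. Sex-linked genes were alike within each number.

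Named genes are members of the lists and, among calls without overlap and with a mean of at least 10 TPM in the higher group, the 15 with the largest difference in each direction. The values of 1 listed gene are not reported here. Members and lists were chosen with earlier results of these data known. Promoters came from the RefSeq table of GRCm38.p6, matched by symbol (81 of 105 named genes). Exact two-sided permutation of 4 against 4 libraries cannot go below p = 0.0286, and no such test was used. The fit was tested on simulated data before use. Plots and summaries used Python 3.11.15, NumPy 2.4.6, pandas 2.3.3 and Matplotlib 3.10.9.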

Additional observations from a re-analysis of the deposited data

Results flagged for a closer look

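In 9 of the 144 groups of 4 libraries examined (72 genes in each piece), 1 library was set apart from the others on the log2(TPM + 1) scale by a gap above Dixon's 95% limit, which chance exceeds in about 1 in 20 groups. Proximal replicate 4 stood above the other proximal libraries for Wnt3 (11.3 TPM), Shisa2 (0.540 TPM), Tdgf1 (3.27 TPM) and EGFP (3.60 TPM), proximal replicate 1 for Fgf5 (2.12 TPM) and proximal replicate 2 for Lefty1 (0.143 TPM). For EGFP and Lefty1 the other proximal values were all 0, so any value above 0 would have passed the limit. Proximal replicate 2 stood below the other proximal libraries for Afp (30.2 TPM). On the distal side, replicate 3 stood below the others for Fgf8 (11.5 TPM) and Igfbp2 (110 TPM).

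For 10 named genes every distal library lay on one side of every proximal library at E6.5 and every exGut library on the other side of every YsEndo library at E9.5. The difference between the stages was not tested. Higher in distal exEndo and then in YsEndo, with log2 differences at E6.5 and E9.5, were Afp (4.13 and -4.83), Apob (1.38 and -5.48), Ctsc (1.47 and -5.15), Slc40a1 (1.31 and -1.69), Spink1 (1.61 and -3.80) and Trf (1.63 and -4.96). Higher in proximal exEndo and then in exGut were Crabp2 (-3.32 and 2.08), Gpx2 (-3.22 and 4.62) and Klf5 (-1.72 and 1.39). Lama1 (-2.31 and 0.65) was not called at E9.5, and its E9.5 value was -0.13 after quantile normalization. Klf5 at E9.5 was 0.85 after median-ratio rescaling and 0.65 after quantile normalization, and was called under neither.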

How the results depend on the processing

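The E6.5 count of 732 calls lay between 564 (FPKM) and 828 (pseudocount 0.1) under most alternatives. A filter at 5 TPM tested 9277 genes and called 486, 274 higher in distal exEndo. Without distal replicates 2 and 4, 459 were called, 279 higher in distal and 180 higher in proximal exEndo. Leaving out single libraries gave 642 to 877 calls, 402 to 512 higher in distal and 214 to 365 higher in proximal exEndo. With the replicate number as a block (correlation 0.178) 771 genes were called, among them all 732, so that the pairing removed no call among the 105 named genes, and it added 4 among 304 other listed genes (Ccnd1, Nanog, Rbp4 and Vldlr). Quantile normalization moved the share of calls higher in distal exEndo from 61.7% to 53.5%. None of the 105 called named genes changed sign under any of the 22 alternatives, and 73 kept their call in each alternative that tested them. Without a filter on low values 13 lost their call, and without both distal libraries with EGFP above 10 TPM 24 did.

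At E9.5 the calls higher in exGut and in YsEndo were 2124 and 2150 under quantile normalization and 2698 and 2275 under median-ratio rescaling. A block by replicate number, whose libraries were not paired by the labels, left 5331 calls there, and leaving out single libraries 5070 to 5537. The share of E6.5 calls with the same sign at E9.5 was 67.7% under quantile normalization, against 59.7% of all genes, and 68.6 to 74.5% when single libraries were left out. Read counts were not used, so weakly expressed genes cannot be weighed by depth.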

Other observations

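Genes on the X chromosome were called at 12% (49 of 410 tested, 36 higher in distal and 13 higher in proximal exEndo), against 6.21% of 11004 genes on other chromosomes (683 called). The median log2 difference of X-linked genes was 0.13.

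Neighbouring genes were called in the same direction in 10 runs of at least 3 tested genes, listed after their values were seen. Distal-high runs held the paired immunoglobulin-like receptor genes Pilra, Pilrb1 and Pilrb2 with Zcwpw1 at chr5:137787798-137871815, the aldo-keto reductases Akr1c13, Akr1c19 and Akr1c12 at chr13:4191150-4279433, Fgf8 with Fbxw4 and Npm3 at chr19:45578254-45749591, and Bmp2 with Lrrn4 and Fermt1 at chr2:132868305-133562885. The Akr1c and Pilrb genes are near-identical copies, and their single values are uncertain for that reason.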
